A study of Homo sapiens with 6 samples.

Results

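The genes followed here through a ribosome profiling experiment are 10 in number: 8 protein arginine methyltransferases (PRMT1, PRMT2, PRMT3, CARM1, PRMT5, PRMT6, PRMT7 and PRMT9) and 2 partner proteins of PRMT5, WDR77 and CLNS1A. They were chosen by name because the study inhibited 2 of these enzymes, with earlier results of these data known. All 10 were found among the 60420 genes of the deposited table. The cells were HEK293T, a line derived from human embryonic kidney cells in which the large T antigen of SV40 is expressed. They had been treated with DMSO as vehicle, with a PRMT1 inhibitor or with a PRMT4 inhibitor (PRMT4 is the older name of CARM1), and neither compound, dose nor time is named in the labels. For each of the 3 treatments there was 1 input library, read here as the RNA level, and 1 footprint library, which holds the fragments that ribosomes protect from nuclease. The 6 libraries therefore have no replicates, no difference below has a replicate check, and every statement is about these libraries alone. In bulk samples, fewer cells with a message and less message per cell cannot be told apart.

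Arginine methyltransferases move methyl groups from S-adenosylmethionine to the side chain of arginine. Type I enzymes (PRMT1, PRMT2, PRMT3, CARM1 and PRMT6) finish with asymmetric dimethylarginine, type II enzymes (PRMT5 and PRMT9) with symmetric dimethylarginine, and the type III enzyme PRMT7 stops at the monomethyl mark. Many of their substrates are RNA-binding proteins, splicing factors, ribosomal proteins and histones. PRMT5 works in a complex with WDR77, also known as MEP50, and CLNS1A, also known as pICln, brings it the Sm proteins of the spliceosome. Such inhibitors block the activity of the protein, so the level of the target's message does not show whether it was blocked.

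Values are TPM, a share of the library's transcripts after division by gene length, so input levels of different genes can be set side by side. Footprints lie mainly on the coding sequence, whose share of the annotated transcript ran from 23.8% (CLNS1A) to 76.0% (PRMT1) among the 10 genes. Footprint TPM and loading are therefore less comparable between genes than between libraries for the same gene, and the part of coding share in their order was not tested. Loading means footprint TPM over input TPM. Differences are log2 ratios of TPM + 1, shifted so that the median of all 9040 tested genes (those whose TPM averaged 5 or more across all 6 libraries) is 0, and are called centred. Of the 10 genes, 9 passed that filter, and PRMT9, with a mean of 4.77 TPM, did not. The median before centring was -0.16 for the input labelled PRMT1 inhibitor and -0.37 for that labelled PRMT4 inhibitor. It was -0.15 and -0.01 for the footprints of these labels, and 0.02 and 0.37 for their loading against DMSO.

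Before any result, a property of the labels has to be stated. Over the 8117 tested protein-coding genes, the change in footprints labelled PRMT1 inhibitor followed the change in the input labelled PRMT4 inhibitor (Pearson r = 0.56 over genes) more closely than that in the input of its own label (r = 0.36). The change in footprints labelled PRMT4 inhibitor followed the input labelled PRMT1 inhibitor (r = 0.46) more closely than its own (r = 0.20). These are descriptions across genes, which are not independent replicates. Whether the inhibitor labels of the inputs or of the footprints are exchanged could not be settled from the files, so each label below may stand for the other inhibitor in one kind of library. Libraries are therefore named by their labels, and loading is given over both inputs where a result turns on it. Among markers of HEK293 lines, VIM (104 to 208 TPM), KRT18 (31.5 to 58.2 TPM), LIN28B (2.19 to 17.6 TPM) and KRT8 (3.97 to 8.47 TPM) were present in all 6 libraries, while NEFM and PAX2 did not exceed 1.97 and 1.15 TPM. The leukocyte marker PTPRC and the hepatocyte marker ALB did not exceed 0.02 and 0.03 TPM, and the fibroblast collagen COL1A1 lay between 1.97 and 3.82 TPM.

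The start codon contexts of 6 of the messages are shown because these 6 span the range of ribosome loading described below. Each run is the stretch around the start codon of the gene's principal GENCODE 29 transcript (GRCh38), 5′ to 3′, read from the transcript sequence. Capitals mark the ATG, the third base before it and the base right after it, which matter most in the consensus for initiation, where a purine and a G are favoured.
CARM1: gccggatctAagATGGca
PRMT1: gtgcgggtgAagATGGcg
PRMT5: gcgaggagaAagATGGcg
WDR77: ggaaccgtgGagATGCgg
PRMT2: cctaagagaActATGGca
PRMT6: agagcggccAagATGTcg
All 10 genes had a purine at the third base before the ATG, as did 85.4% of 8051 tested protein-coding genes with such a transcript. A G right after the ATG was present in 4 of the 10, namely CARM1, PRMT1, PRMT5 and PRMT2, against 54.0% of those genes. The context did not follow the order of loading, since PRMT2, with both favoured bases, was among the least loaded messages.

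In DMSO input the most abundant member was PRMT1 (ENSG00000126457.21_3), the main source of asymmetric dimethylarginine in mammalian cells, at 136 TPM. CLNS1A (ENSG00000074201.8_2) followed at 123 TPM. WDR77 (ENSG00000116455.13_3) and PRMT5 (ENSG00000100462.15_3), which build 1 complex, stood next to each other at 99.0 and 98.9 TPM. A middle group held PRMT2 (34.7 TPM), PRMT7 (32.9 TPM) and CARM1 (32.0 TPM), then PRMT3 (25.2 TPM). PRMT6, a nuclear enzyme that methylates histone tails, had 15.6 TPM, and PRMT9, which methylates the splicing factor SF3B2, had 6.54 TPM. Without replicates it cannot be said which neighbours in this order differ. The order at the top was not the same in every input: CLNS1A led in the input labelled PRMT1 inhibitor (102 against 90.7 TPM for PRMT1), and PRMT1 led in that labelled PRMT4 inhibitor (86.1 against 71.4 TPM). PRMT8, a brain enzyme closely related to PRMT1, was listed at 0 in every library.

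PRMT1 and PRMT5 together made up most of the family's messages. Of the TPM summed over the 8 enzymes they held 61.5% in DMSO input and 66.8% in DMSO footprints. In the other inputs they held 56.1% (PRMT1 inhibitor label) and 55.1% (PRMT4 inhibitor label), and in the other footprints 66.1% and 64.0%. The sum itself was 382 TPM in DMSO input. It was 289 TPM (PRMT1 label) and 271 TPM (PRMT4 label) in the other inputs, or 75.6% and 71.0% of DMSO. In footprints it was 658, 501 and 537 TPM, or 76.2% and 81.6% of DMSO for the inhibitor labels. Protein-coding genes as a whole also held a smaller share of these libraries. Their share relative to DMSO was 84.8% and 73.3% in the inputs of the PRMT1 and PRMT4 labels, and 83.9% and 95.1% in the footprints. The part of that shift in the family's sum was not tested, and centring removes the median of it from the ratios below.

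**Figure D1:**
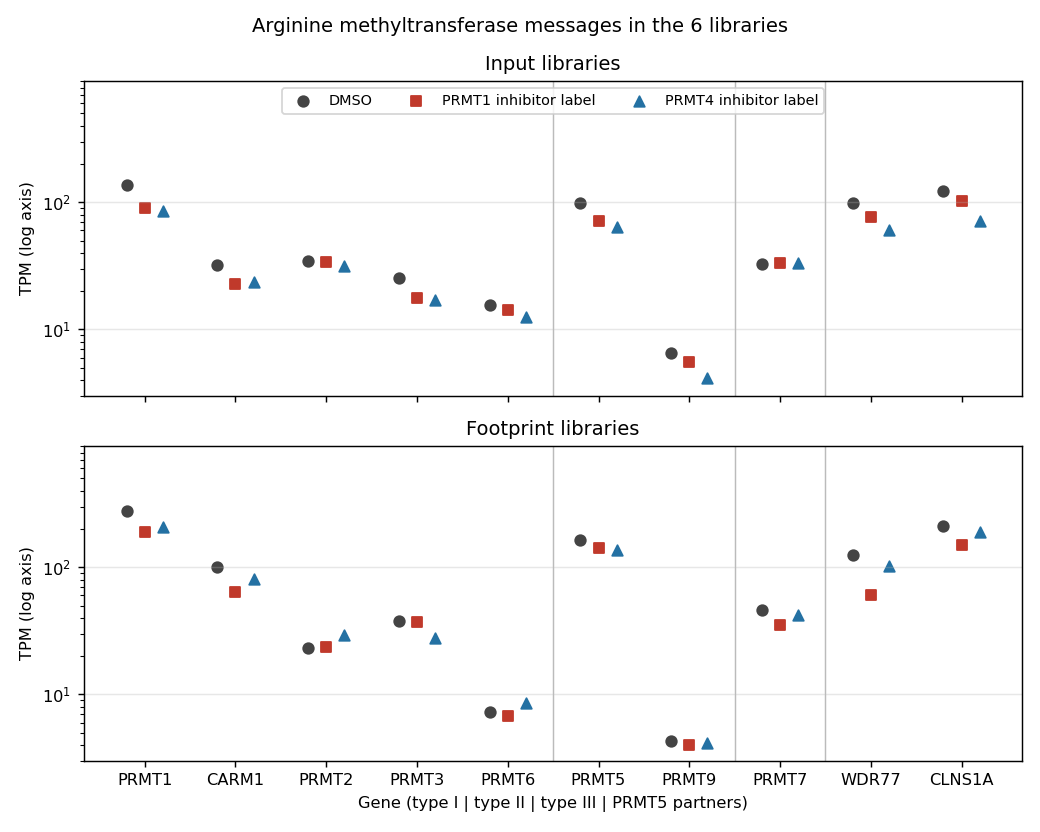
TPM of the 10 genes on a log axis in the 3 input libraries (top) and the 3 footprint libraries (bottom). Circles are DMSO, squares the PRMT1 inhibitor label and triangles the PRMT4 inhibitor label, 1 library each. PRMT1, PRMT5, WDR77 and CLNS1A are the highest in each input, while in footprints labelled PRMT1 inhibitor WDR77 (60.2 TPM) is below CARM1 (63.4 TPM), and PRMT7 is level across the inputs at 32.9 to 33.0 TPM.

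Ribosome loading in DMSO, not corrected for the coding share of each transcript, ran over a wide range within the family. CARM1 (ENSG00000142453.11_3), the type I enzyme that methylates splicing factors, histones and transcriptional coactivators, was the most loaded, with 99.9 TPM in footprints against 32.0 TPM in input. Its centred ratio was 1.51, above 93.7% of the tested protein-coding genes. PRMT1 followed with 276 against 136 TPM (0.91). The 3 proteins of the PRMT5 complex were moderately loaded: CLNS1A had 211 against 123 TPM (0.67), PRMT5 164 against 98.9 TPM (0.62) and WDR77 125 against 99.0 TPM (0.23). PRMT3, a cytosolic enzyme that methylates a protein of the small ribosomal subunit, had 37.5 against 25.2 TPM (0.45), and PRMT7 had 46.1 against 32.9 TPM (0.37).

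Fewer footprints than input were seen in DMSO for 3 messages. PRMT6 had 7.26 against 15.6 TPM, a centred ratio of -1.11 that lay above only 15% of tested protein-coding genes. PRMT2, an enzyme with an SH3 domain, had 23.2 against 34.7 TPM (-0.66). PRMT9, below the filter, had 4.28 against 6.54 TPM. Of the 9 genes tested, CARM1 was the 1 at least 2-fold above the median and PRMT6 the 1 at least 2-fold below it, where 14.6% and 17.6% of all 8117 genes were, so these counts are near the background (32.3% for both directions together). The call of PRMT6 was lost with a pseudocount of 5 (-0.83), with a mean TPM of at least 1 (-0.90) and with no filter (-0.96). PRMT1 passed 2-fold under the last 2 of these settings (1.12 and 1.06) and without centring (1.01). The median of the 9 was 0.45. With TPM rescaled to protein-coding genes and no centring, CARM1 was at 0.93 and no longer past 2-fold. PRMT6 was at -1.71, PRMT2 at -1.26 was also past 2-fold lower, and WDR77, PRMT7 and PRMT3 were below 0, at -0.36, -0.21 and -0.12. That setting moves genes in general down, since protein-coding genes held 45.65% of TPM in DMSO input and 74.3% in DMSO footprints. Under it 467 of all tested protein-coding genes were past 2-fold higher and 2748 lower, against 1189 and 1430 as reported.

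Features of the annotated transcripts were set beside loading as a description. PRMT2 had 9 ATG triplets in the 762 bases before its start codon, a number reached by 2.27% of tested protein-coding genes, and was poorly loaded. PRMT6, the least loaded, had none in a leader of 37 bases. It is encoded by 1 exon, as are 1.65% of tested genes. CARM1, the most loaded, also had no upstream ATG, and its leader of 190 bases held 88.4% G and C. In all, 6 of the 10 had at least 1 upstream ATG, against 49.1% of tested genes. Across the 8051 genes loading went down with the length of the coding sequence (Spearman rho -0.40 over genes) and, weakly, with the number of upstream ATG triplets (-0.15). It also went weakly down with the coding share of the transcript (-0.145). Loading went up with the mean TPM of the 6 libraries (0.44), a mean that includes the footprints. PRMT6, with a mean of 10.8 TPM, had the lowest level of the tested members. Within the family the coding sequences ran from 711 bases (CLNS1A) to 2535 bases (PRMT9), and CARM1, with 1824 bases, was longer than PRMT6 with 1125.

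**Figure D2:**
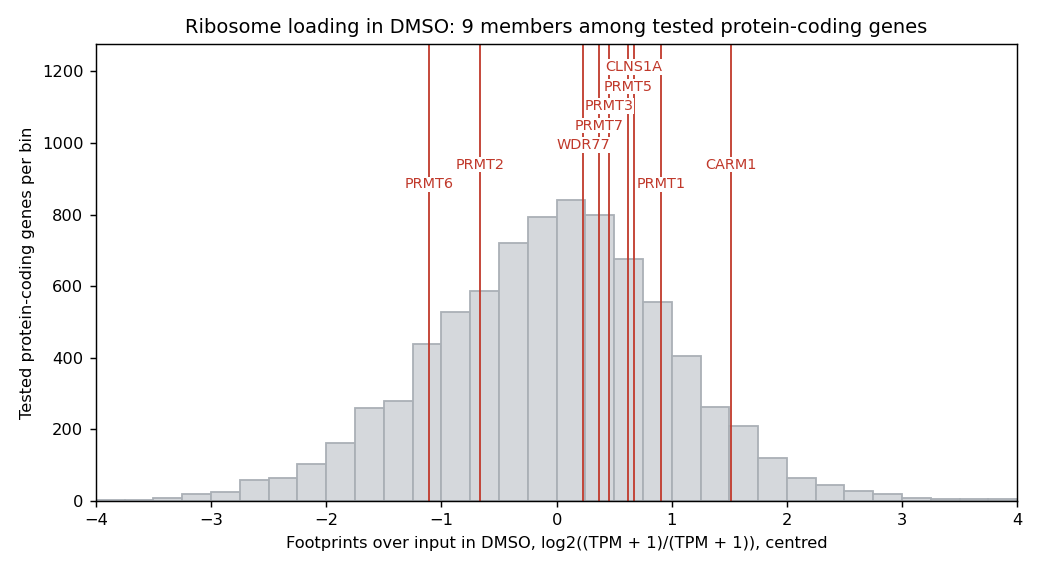
Histogram of the centred log2 ratio of footprints over input in DMSO for the tested protein-coding genes, drawn from -4 to 4 in bins of equal width, with a line for each of the 9 members that passed the filter. CARM1 is at 1.51 in the right tail, PRMT2 and PRMT6 are at -0.66 and -1.11, and the other 6 lie between 0.23 and 0.91.

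The targeted enzymes and their relatives were next compared with DMSO. No member reached a 2-fold difference, higher or lower, in any of the 4 comparisons. Among all 9040 tested genes the share past 2-fold in inputs was 0.819% under the PRMT1 label and 2.44% under the PRMT4 label. It was 3.83% in footprints labelled PRMT1 inhibitor and 0.896% in those labelled PRMT4 inhibitor. The members are protein-coding, and with the 8117 tested protein-coding genes alone, centred on their own median, 4, 38, 118 and 16 genes passed 2-fold, against 74, 221, 346 and 81 of all types. Members with a centred ratio below 0 numbered 6 of 9, 6 of 9, 6 of 9 and 7 of 9 in these comparisons, where centring puts 50.0% of all tested genes below 0. Their medians were -0.20, -0.18, -0.24 and -0.25. Both inhibitor labels share the DMSO libraries, so the 2 inputs, or the 2 footprint libraries, are not independent of each other.

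The type I enzymes did not all stand on the same side of DMSO. PRMT1 input was 136 TPM with DMSO, 90.7 TPM under the PRMT1 label and 86.1 TPM under the PRMT4 label. In footprints it had 276, 190 and 207 TPM in the same order. Each of the 4 inhibitor libraries was below DMSO, at 63.2% to 75.0% of DMSO. The centred ratios were -0.42, -0.29, -0.39 and -0.41 for the 2 inputs and the 2 footprint libraries, and all remained below 0 under every setting tried. Only 3.03% of tested genes were lower in the input labelled PRMT1 inhibitor.

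CARM1 had 32.0 TPM in DMSO input, 22.8 TPM under the PRMT1 label and 23.6 TPM under the PRMT4 label, and 99.9, 63.4 and 81.1 TPM in footprints. It stood at 71.2% and 73.7% of DMSO in inputs and at 63.4% and 81.2% in footprints. The message of the enzyme named by the PRMT4 label was thus not lower under that label than under the other one. In the input labelled PRMT4 inhibitor its centred ratio was -0.06, close to the median gene, and 0.01 after rescaling to protein-coding genes. In footprints labelled PRMT1 inhibitor it was -0.50.

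PRMT3 differed between RNA and footprints. Its input values were 25.2 TPM in DMSO, 17.5 TPM under the PRMT1 label and 17.0 TPM under the PRMT4 label. Its footprints were 37.5, 37.2 and 28.0 TPM. Under the PRMT1 label the message was therefore at 69.6% of DMSO while the footprints were at 99.2%, and under the PRMT4 label both were lower, at 67.4% and 74.7%.

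PRMT2 and PRMT6, the least loaded messages of the 9 in DMSO, were the 2 whose TPM was higher than in DMSO in footprints labelled PRMT4 inhibitor. Both comparisons use the same DMSO footprint library. A low value there lowers loading and raises this difference by construction, so no link between them is read. PRMT2 input was 34.7 TPM with DMSO, 33.6 TPM under the PRMT1 label and 31.5 TPM under the PRMT4 label, and it had 23.2, 23.6 and 29.5 TPM in footprints. PRMT6 had 15.6, 14.2 and 12.6 TPM in inputs and 7.26, 6.81 and 8.58 TPM in footprints. In footprints labelled PRMT4 inhibitor the centred ratios were 0.34 for PRMT2, above 90.4% of tested genes, and 0.22 for PRMT6. In inputs they were 0.11 and 0.23 for PRMT2 and 0.03 and 0.08 for PRMT6, and these 4 values turned negative without centring (from -0.28 to -0.05).

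PRMT7 (ENSG00000132600.16_3), the only type III enzyme, had a level input of 32.9 TPM in DMSO and 33.0 TPM under both inhibitor labels. It was the only member whose input TPM was not below DMSO in either inhibitor library. Relative to the median gene this gave centred ratios of 0.16 and 0.37, which were 0.01 and 0.00 without centring. Its footprints were 46.1, 35.0 and 41.8 TPM, or 75.8% and 90.7% of DMSO. Loading of PRMT7 was therefore lower than in DMSO under both labels, with centred ratios of -0.41 and -0.51. Over the input of the other label it was -0.63 and -0.31. It remained below 0 under all 9 settings for each label, from -0.63 to -0.14 in all.

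**Figure D3:**
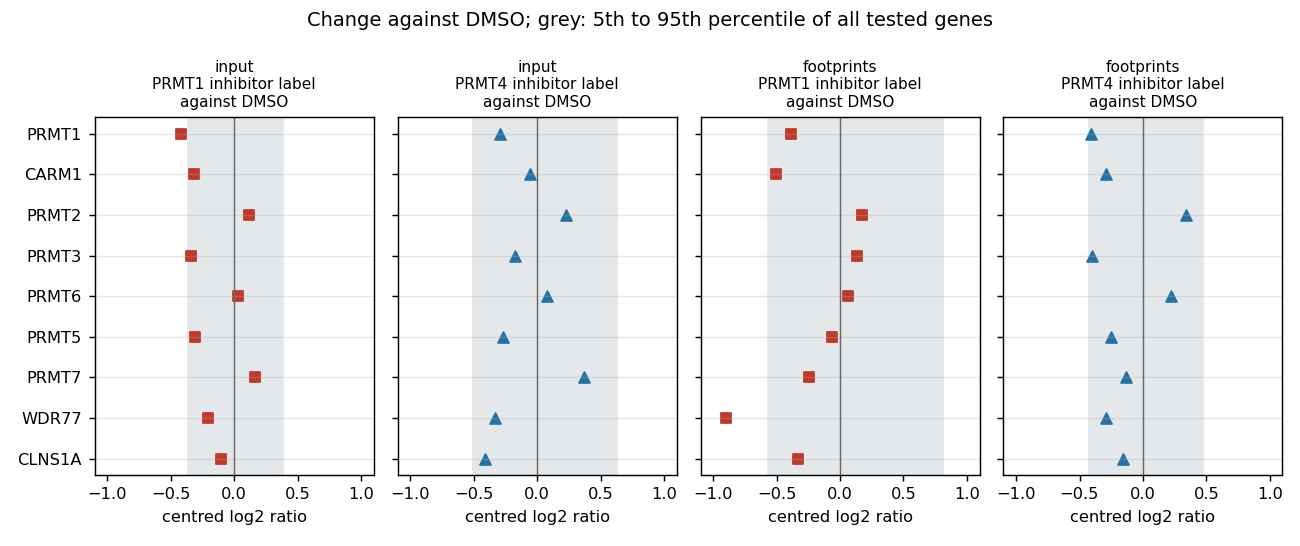
Centred log2 ratios against DMSO (x axis) of the 9 tested members (rows) in 4 comparisons, with squares for the PRMT1 inhibitor label and triangles for the PRMT4 inhibitor label. The grey band spans the 5th to the 95th percentile of all tested genes; WDR77 at -0.90 in footprints labelled PRMT1 inhibitor lies furthest outside it, and PRMT1 at -0.42 in the input of that label is just outside.

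Type II enzymes came next. PRMT5 had 98.9 TPM in DMSO input, 71.3 TPM under the PRMT1 label and 63.5 TPM under the PRMT4 label, and 164, 141 and 137 TPM in footprints. It stood at 72.1% and 64.2% of DMSO in inputs and at 86.2% and 83.6% in footprints. The centred footprint ratio under the PRMT1 label, -0.07, was close to the median gene and became 0.04 after rescaling. PRMT9 had 6.54, 5.53 and 4.13 TPM in inputs and 4.28, 4.01 and 4.13 TPM in footprints. At that level the pseudocount of 1 understates its ratios, which are not described.

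The difference furthest from the median gene within the group concerned WDR77, the WD-repeat partner that holds PRMT5 and its substrates together. Its footprints were 125 TPM in DMSO, 60.2 TPM under the PRMT1 label and 102 TPM under the PRMT4 label. The footprint library labelled PRMT1 inhibitor thus held 48.0% of the DMSO value and stood apart from the other 2. In input WDR77 had 99.0, 76.8 and 60.8 TPM, so the message was lowest under the other label. The centred footprint ratio was -0.90, and 0.83% of tested genes were lower. It lay just inside 2-fold, and just outside without centring, at -1.05. Across the settings tried it ranged from -1.05 to -0.80.

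CLNS1A, which carries Sm proteins to PRMT5, had 123, 102 and 71.4 TPM in inputs and 211, 151 and 189 TPM in footprints. It was lowest in the input labelled PRMT4 inhibitor (58.2% of DMSO) and in the footprints labelled PRMT1 inhibitor (71.5% of DMSO). The median tested gene was lowest in the same input and the same footprints before centring. The order of CLNS1A held after centring, at -0.105 (PRMT1 label) and -0.41 (PRMT4 label) in inputs and -0.33 and -0.15 in footprints. With 1 library each, it is not read as a trait of CLNS1A.

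Ratios within a library are not affected by how that library is scaled. In inputs WDR77 stood at 1.0 per PRMT5 in DMSO, 1.08 under the PRMT1 label and 0.96 under the PRMT4 label. In footprints the ratio was 0.76 in DMSO and 0.74 under the PRMT4 label, but 0.43 under the PRMT1 label. CLNS1A per PRMT5 was 1.24, 1.43 and 1.13 in inputs and 1.29, 1.07 and 1.38 in footprints. The 5 other libraries thus had WDR77 between 0.74 and 1.08 per PRMT5. The ratio shows unequal values of the 2 messages and not that either was unchanged.

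Loading of WDR77 under the PRMT1 label had a centred ratio of -0.70 against DMSO, and 2.36% of tested genes were lower. Taken over the input labelled PRMT4 inhibitor, which the footprints followed more closely, it was -0.59, lower than all but 4.75% of genes. Under the PRMT4 label it was 0.03, and -0.10 over the other input. For PRMT5 itself loading was 0.24 and 0.18 under the PRMT1 label and 0.00 and 0.05 under the PRMT4 label, with the own input named first. For CLNS1A it was -0.23 and 0.06, then 0.24 and -0.06, so its sign depended on which input was used. Loading of PRMT1 stayed near the median gene, at 0.03 and -0.12, then -0.13 and 0.01. For CARM1 it was -0.19 and -0.46, then -0.25 and 0.01, and for PRMT3 it was 0.47 and 0.30, then -0.24 and -0.07. No member passed 2-fold in loading, where 4.12% of tested genes did under the PRMT1 label and 2.94% under the PRMT4 label.

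Because WDR77 carried the difference furthest from the median, its surroundings were examined. WDR77 and ATP5PB, which encodes a subunit of mitochondrial ATP synthase, are annotated head to head, and RefSeq places their start sites on either side of 207 bases at chr1:111449257-111449463 of GRCh38.p14. That stretch is printed on the minus strand, which is the direction of WDR77, 5′ to 3′. Capitals mark TCTCGCGAGA, the longest sequence found more than once in it that reads the same on both strands.
WDR77 and ATP5PB: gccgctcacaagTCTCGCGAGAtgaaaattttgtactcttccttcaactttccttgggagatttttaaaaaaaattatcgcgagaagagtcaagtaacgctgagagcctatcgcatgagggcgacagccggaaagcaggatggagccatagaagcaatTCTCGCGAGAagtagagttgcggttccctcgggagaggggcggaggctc
The 2 copies begin 195 and 49 bases before the WDR77 start. The sequence was picked from this stretch, so its presence before the WDR77 start was fixed in advance and is not a result. In the 250 bases before a start, 0.373% of 35116 RefSeq promoters hold at least 1 copy, on either strand. No other member held it. A match of letters is a description and not a binding site.

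ATP5PB was looked up after the values of WDR77 were seen. Its input was 220 TPM with DMSO, 171 TPM under the PRMT1 label and 124 TPM under the PRMT4 label, or 77.8% and 56.1% of DMSO, close to the 77.6% and 61.4% of WDR77. In footprints it had 324, 249 and 277 TPM, or 76.7% and 85.5% of DMSO. The pair therefore stood at like levels relative to DMSO in both inputs and in footprints labelled PRMT4 inhibitor. It differed in footprints labelled PRMT1 inhibitor, where WDR77 was at 48.0%. Over all tested genes the centred ratios ran from -0.36 to 0.38 (5th to 95th percentile) in the input labelled PRMT1 inhibitor. In the input labelled PRMT4 inhibitor they ran from -0.51 to 0.63, and in footprints of that label from -0.43 to 0.47. Many genes thus look alike there, and shared control was not tested. Exons of the 2 genes overlap by 350 bases on opposite strands in GENCODE 29, and WDR77 overlaps a same-strand locus, AL390195.1, by 673 bases. That locus had 6.92, 9.38 and 7.55 TPM in footprints and from 1.1 to 4.58 TPM in inputs. No source used here states whether the authors' counting used strand, and the part of shared reads in the WDR77 value was not tested.

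**Figure D4:**
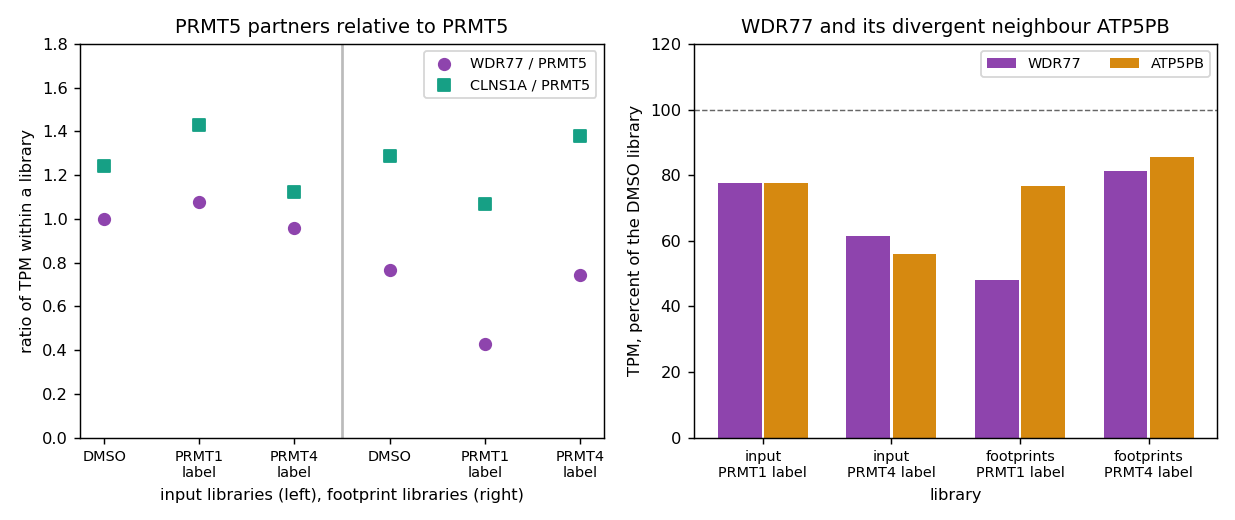
Left, TPM of WDR77 (circles) and CLNS1A (squares) divided by that of PRMT5 in the same library, for the 3 inputs and the 3 footprint libraries; WDR77 is at 0.43 in footprints labelled PRMT1 inhibitor and between 0.74 and 1.08 elsewhere. Right, TPM of WDR77 and ATP5PB as a percent of the matching DMSO library, with bars from 0 and a dashed line at 100; the bars differ most in footprints labelled PRMT1 inhibitor, 48.0% against 76.7%.

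Other members have annotated overlaps as well. CARM1 shares 886 exonic bases with YIPF2 on the opposite strand, which had from 15.7 to 18.2 TPM in inputs and 28.6 to 41.4 TPM in footprints, against 22.8 to 32.0 TPM and 63.4 to 99.9 TPM for CARM1, so the values of CARM1 are uncertain to that extent. PRMT5 shares 938 bases with its antisense RNA PRMT5-AS1, which did not exceed 0.11 TPM. PRMT1 shares 366 bases with ADM5 (at most 0.76 TPM) and 171 with an antisense locus listed at 0, and PRMT7 shares 239 with SMPD3 (at most 0.23 TPM). Pseudogenes named after CARM1, CLNS1A, PRMT1 and PRMT5 did not exceed 0.12 TPM.

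Other motifs were counted in the 250 bases before each member's start, on both strands. A member was counted when any of its starts held the motif, and CARM1 and PRMT7 have 2 starts each. The percents are of all RefSeq promoters taken singly, expressed or not, so counts and percents are not in like units. The GC box GGGCGG was found in 7 of 10 members, namely PRMT1, PRMT2, PRMT3, CARM1, PRMT7, PRMT9 and WDR77, against 42.6% of promoters. CCAAT was found in PRMT1 (2 copies) and PRMT5 (3 copies), against 32.0%. The E-box CACGTG was found in PRMT3 (6.34% of promoters) and the ETS motif CCGGAAG in PRMT3 and CLNS1A (8.52%). PRMT6 held none of them. The copies of a motif can overlap those of another, and no order of expression was read from them.

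Compared directly with each other, the inhibitor labels differed by less than 2-fold for every member, where 1.69% of tested genes passed 2-fold in inputs and 3.56% in footprints. In inputs CLNS1A was higher under the PRMT1 label (102 against 71.4 TPM, centred ratio 0.32), and CARM1 had 22.8 against 23.6 TPM (-0.24). In footprints PRMT3 was higher under the PRMT1 label (37.2 against 28.0 TPM, 0.54) and WDR77 lower (60.2 against 102 TPM, -0.60). Between these lay PRMT1, with 190 against 207 TPM and a centred ratio of 0.02.

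Genes whose values were most alike to 3 members over the 6 libraries were found by the root mean square difference of log2(TPM + 1) profiles after removal of each gene's own mean, among the 3600 protein-coding genes that averaged 20 TPM or more. For PRMT1 the nearest were SRRT, a partner of the nuclear cap-binding complex (difference 0.03), the mitotic kinase NEK6 (0.06) and MAD2L2 (0.07), an adaptor in DNA repair. SRRT had 61.0, 42.3 and 40.4 TPM in inputs and 125, 89.9 and 94.4 TPM in footprints. For CARM1 they included CCDC124 (0.05) and SCO1 (0.08), of which the last is a copper chaperone of cytochrome c oxidase. For PRMT5 they were the mitochondrial ribosomal proteins MRPL24 (0.04) and MRPL40 (0.05) and the prohibitin PHB2 (0.05). Within the family PRMT5 was the nearest to PRMT1, at rank 76 (0.13), followed by CLNS1A at rank 259 (0.18), while PRMT2 was at rank 3085 (0.80). Input and footprint levels weigh in this measure as well as the inhibitor labels.

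Genes around arginine methylation were counted from lists drawn up by function, with earlier results of these data known. S-adenosylmethionine supply and recycling had 10 genes, of which 9 passed the filter. Of these, 7, 7, 8 and 7 had centred ratios below 0 in the inputs labelled PRMT1 and PRMT4 inhibitor and the corresponding footprints, with medians of -0.10, -0.23, -0.34 and -0.25 and none past 2-fold. MAT2A, which makes S-adenosylmethionine, had 57.0, 48.3 and 48.2 TPM in inputs and 191, 142 and 160 TPM in footprints. AHCY, which clears the product S-adenosylhomocysteine, had 131, 90.1 and 99.6 TPM in inputs and 205, 161 and 155 TPM in footprints. MTAP removes methylthioadenosine, a natural inhibitor of PRMT5, and was the most loaded of all genes listed here. It had 53.9 TPM in DMSO input and 513 TPM in DMSO footprints, a centred ratio of 3.13 above 99.6% of tested protein-coding genes.

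The adaptors RIOK1, which competes with CLNS1A for PRMT5, and COPRS, which directs PRMT5 to histones, had input values that were lower under the PRMT4 label. RIOK1 had 33.3, 33.3 and 19.7 TPM in inputs and 17.9, 13.2 and 23.1 TPM in footprints. COPRS had 63.7, 54.6 and 33.9 TPM in inputs and 82.6, 61.1 and 90.1 TPM in footprints. For both, the lowest input was that labelled PRMT4 inhibitor and the lowest footprints were those labelled PRMT1 inhibitor, where the median tested gene was lowest too. The order held after centring. With the PRMT1 label first, RIOK1 was at 0.16 and -0.36 in inputs and -0.27 and 0.36 in footprints. COPRS was at -0.06 and -0.53 in inputs and -0.28 and 0.13 in footprints. Their footprints were highest under the PRMT4 label.

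Of 5 readers of methylarginine, 0, 3, 3 and 3 were below 0 in these comparisons. SMN1 was the 1 gene of these lists past 2-fold against DMSO, with 3.86, 1.70 and 1.0 TPM in footprints (-1.27 under the PRMT4 label), but it has a near-identical copy, SMN2, and its values are uncertain. Of 5 regulators of PRMT1 or of free methylarginine, 4, 2, 3 and 3 were below 0 and none was past 2-fold. BTG2, an activator of PRMT1, had 5.09, 4.07 and 4.98 TPM in inputs and 21.0, 19.2 and 17.7 TPM in footprints. METTL23 and NDUFAF7, arginine methyltransferases outside the PRMT family, lay within 2-fold of DMSO in the 4 comparisons.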

How the data were processed

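Ribosome profiling values of 6 HEK293T libraries were analysed. The deposited table holds TPM as computed by the authors, 1 column per library, with no replicates and no read counts, so the depth is unknown and no interval or test was possible. The submitters' processing notes name RSEM 1.2.22, STAR 2.4.2a, Bowtie 1.1.2, cutadapt 1.18 and the genome build GRCh37.p13, with no role for any of them. Footprints came from RNase I digestion of lysates and monosomes collected from sucrose gradients, per the labels' protocols, which describe no separate preparation of input.

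Of 60461 listed identifiers, 41 copies from the Y pseudoautosomal region were dropped. Symbols were found for 55725 and gene types (GENCODE 29) for 56157. Ratios used a pseudocount of 1 TPM, a mean TPM of at least 5 and centring on the median tested gene (protein-coding genes for loading in DMSO). Called means at least 2-fold. GENCODE 29 and RefSeq sequences are on GRCh38, not the authors' build, so they serve as descriptions. Likeness was computed for PRMT1, CARM1 and PRMT5, with the 3 nearest genes named for each, of which 1 is not reported here. Members and lists were chosen with earlier results of these data known. The ratio step was tested on simulated data. Python 3.11.15, numpy 2.4.6, pandas 2.3.3 and matplotlib 3.10.9 were used. Alternatives were the pseudocount, the filter, centring, gene types, rescaling and the input paired with each footprint library. The ratio of WDR77 to PRMT5 within a library was added after seeing the data.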

Additional observations from a re-analysis of the deposited data

Results flagged for a closer look

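Opposite signs under the 2 inhibitor labels were seen for 3 results in which both values were at least 0.1 from 0 on the log2 scale. Pairs with a value closer to 0, such as loading of WDR77 (-0.70 and 0.03) and of PRMT1 (0.03 and -0.13), are not counted. Each rests on 1 library per label, and the difference between labels was not tested. Footprints of PRMT3 had a centred log2 ratio of 0.13 under the PRMT1 label and -0.40 under the PRMT4 label, and the first became -0.01 without centring. Loading of PRMT3 was 0.47 and -0.24, and the second became 0.13 without centring. Over the input of the other label loading of PRMT3 was 0.30 and -0.07, the second of which is less than 0.1 from 0. Loading of CLNS1A was -0.23 and 0.24, and over the input of the other label it was 0.06 and -0.06.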

How the results depend on the processing

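Counts of genes at least 2-fold from the median depended on the processing, while no member passed 2-fold against DMSO as reported. In the order input, footprints and loading, each with the PRMT1 label before the PRMT4 label and then the direct comparison of labels in input and in footprints, the counts were 74, 221, 346, 81, 372, 266, 153 and 322. With a mean TPM of at least 1 they were 120, 335, 552, 178, 657, 508, 237 and 512, and with no filter 166, 424, 644, 250, 902, 791, 344 and 599. With a pseudocount of 5 they were 42, 113, 193, 38, 202, 136, 82 and 173. With protein-coding genes only they were 4, 38, 118, 16, 116, 85, 31 and 121, and rescaled to these genes with no centring 8, 52, 168, 23, 142, 103, 47 and 145. A pseudocount of 0.1 gave 119 for the input labelled PRMT1 inhibitor and 141 for the footprints labelled PRMT4 inhibitor. Loading under the PRMT4 label had 424 without centring and 137 over the other input. The filter and gene type settings change which genes are counted and the median they are centred on. With protein-coding genes only, 8117 genes were tested in place of 9040. The cause of the differences was not tested for any setting.

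Without centring the share of higher among these genes went from 81.0% to 27.1% for the input labelled PRMT4 inhibitor, from 27.4% to 79.2% for loading of that label, from 39.2% to 67.2% for the inputs compared directly, from 85% to 70.1% and from 87.6% to 76.6% for the footprints labelled PRMT1 inhibitor against DMSO and against the other label, and from 75.7% to 65.1% for the input labelled PRMT1 inhibitor. For loading in DMSO, rescaling moved it from 45.4% to 14.5%. Members below 0 in loading under the PRMT4 label numbered 4 as reported and 1 without a filter or without centring. In the direct comparison of inputs they numbered 7, against 2 without a filter and 1 without centring. In DMSO loading they numbered 2, and 5 after rescaling. Before centring the median tested gene was itself at 0.37 for loading under the PRMT4 label and at 0.19 for the inputs compared directly. Such shifts apply to genes in general, so these counts are not read as a result about the members. Of 640 member values under alternatives, PRMT9 included, 56 had the other sign. Those of WDR77 in footprints and loading labelled PRMT1 inhibitor did not. No paired analysis was possible because the labels carry no replicate numbers and each group has 1 library. No depth is known, so low values such as those of PRMT9 have no stated precision.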
